A study of Gallus gallus with 16 samples.

Results

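The genes described here build the route by which a liver cell makes and ships secreted protein: targeting to and passage into the endoplasmic reticulum (ER), the COPII and COPI vesicle coats, the TMED cargo receptors and the TRAPP tethering complexes. They were taken by their symbol in the platform annotation, namely every symbol that starts with SEC and a number, TMED and a number, TRAPPC or SRPR, together with the COPA, COPB, COPE, COPG and COPZ coatomer genes, SSR1 to SSR4 and the numbered SRP genes. This rule gave 53 of the 11528 named genes, each with 1 array feature. It used no measured value, though it was chosen with earlier results of these data known. By role, 17 act in targeting and translocation, 15 in the COPII coat and ER exit, 3 in the COPI coat, 6 are TMED cargo receptors and 10 are TRAPP subunits. SEC14L1 and SEC14L5, lipid-binding proteins, matched by name alone. Liver RNA came from male broiler chickens (Gallus gallus, a fast-growing meat type) at day 21, with 4 birds on each of diets E, F, H and A, measured on 1-colour Affymetrix arrays as log2 signals. Birds are named by diet letter and a number in order of deposit. This number pairs no birds across diets, but it follows the split by title number described below. By its title the study concerns broiler performance and ileal protein digestibility under feed additives, an essential oil blend and saponins. Which letter stands for which feed is not in the labels, and diet A was set as baseline merely because its letter leads the alphabet.

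Proteins bound for the blood are recognised while still on the ribosome by the signal recognition particle, which docks at its receptor on the ER and hands them to the SEC61 channel. Folded cargo leaves the ER at exit sites in vesicles coated by COPII, TRAPP complexes help these vesicles find the Golgi, and COPI carries escaped ER residents back. Hepatocytes are professional secretory cells, since they make most plasma proteins and lipoproteins. The roles given below are those known from mammals and yeast.

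Of 15 hepatocyte markers 14 were measured and all 14 lay above the 20th percentile of all signals (4.31) on average, with albumin (ALB) between 13.67 and 13.97 in all 16 birds. All 53 secretory genes lay above that mark on all 16 arrays. Birds H3 and H4 stood apart from the rest: the mean correlation of their arrays with the other arrays was 0.948 and 0.946, against 0.966 to 0.976 for the other birds. Results for diet H are therefore given with and without them, unless said otherwise. In the same 2 birds the median of 48 cytosolic ribosomal protein genes lay 0.47 and 0.55 above its mean over the 16 birds, on the log2 scale. All 3 measured erythroid markers were above the dim mark on every array, and their summed linear signal was 905 to 2052 in diet E, 660 to 2470 in diet F, 629 to 2324 in diet H (2139 and 2324 in H3 and H4) and 791 to 1052 in diet A. All 4 endothelial markers were likewise above it, with sums of 1858 to 2666 in diet E, 1730 to 2910 in diet F, 1091 to 3021 in diet H (1091 and 1241 in H3 and H4) and 2250 to 2724 in diet A. CDH5 had the highest signal of the 4 in every bird, so it weighed most in these sums. All 8 measured T and NK cell markers were above the dim mark on every array. Of these, 6 were higher in diet H than in A at an unadjusted p under 0.05 in limma (8.21% of features, in either direction), and 0 passed adjustment. Of the 8, 2 reached that unadjusted mark without H3 and H4 (2.25% of features). The 8 summed to 841 to 885 in diet E, 740 to 1349 in diet F, 917 to 1328 in diet H and 728 to 873 in diet A. In H minus A 5 of the 8 did not overlap (2.14% of features), and 5 did not without H3 and H4 (9.53% of features, with 2 birds left in diet H). The 5 stellate cell and fibroblast markers, also all above the dim mark, summed to 1287 to 2298 in diet E, 906 to 2248 in diet F, 1115 to 2370 in diet H (1856 and 2370 in H3 and H4) and 901 to 1350 in diet A. COL1A1 had the highest signal of the 5 in every bird, so it weighed most in these sums. In H3 and H4, COL1A1, COL1A2 and PDGFRB were above their means. LUM (log2 signal 6.90 and 6.45, mean 7.18) and PDGFRA (5.21 and 5.27, mean 5.29) were below theirs. Of 6 intestine and pancreas markers 3 were above the dim mark on every array and FABP2 was below it on every array. They summed to 706 to 1582 in diet E, 641 to 1860 in diet F, 652 to 2380 in diet H (2087 and 2380 in H3 and H4) and 447 to 987 in diet A. APOA4 had the highest log2 signal of the 6 in every bird, at 10.81 in H3 and 11.08 in H4, so it weighed most in these sums. CTRC (6.92), CPB1 (6.92) and CELA1 (7.16) were instead highest in bird F4. The median log2 deviation of the 6 was also highest in F4, at 1.07, against 0.77 in H3 and 0.55 in H4. For 6 bile duct markers, diets E, F, H and A gave sums of 1163 to 1534, 852 to 1258, 1010 to 1480 and 963 to 1224. For 4 proliferating cell markers they were 339 to 1638, 174 to 1173, 231 to 1494 and 281 to 1360. For 3 macrophage markers they were 6271 to 7085, 5998 to 8196, 5603 to 6512 and 6337 to 7447. The part of these cell types in the results below was not tested, and in whole liver fewer cells of a type and less RNA per cell cannot be told apart.

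No secretory gene differed between diets after adjustment. In limma's moderated test with Benjamini-Hochberg adjustment over all 20804 features, 0 of 53 genes passed in any of the 6 comparisons or in the F test over all diets, against a background of 0% of features in each. At an unadjusted p under 0.05 the F test held 0 of the 53 genes (background 2.13% of features), diet E minus A held 0 (background 2.03%), F minus A 0 (1.68%) and E minus F 0 (1.35%). For diet H, 6 genes reached that mark against A (background 8.21%), 1 against E (2.72%) and 2 against F (2.6%). Without birds H3 and H4 these counts were 0 against A (2.25%), 1 against E (4.16%) and 0 against F (4.29%). In these fits the shares are near the background, so they are no result about the secretory genes. A fit with the title number as a block held more genes in H minus A and is described in the last section.

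The counts for diet H hung on single birds. Each count is given with the share of all features at the same mark. For H minus A it was 2 without bird A1 (4.76% of features), 2 without A2 (5.12%), 6 without A3 (7.78%) and 2 without A4 (5.34%). It was 16 without H1 (15.3%), 21 without H2 (30.2%), 0 without H3 (2.57%) and 0 without H4 (2.8%). For H minus E it was 5 without E1 (4.08%), 0 without E2 (2.12%), 0 without E3 (2.16%) and 2 without E4 (2.22%). Leaving out a diet H bird gave 2 without H1 (5.22%), 12 without H2 (13.9%), 0 without H3 (1.57%) and 0 without H4 (1.92%). For H minus F it was 1 without F1 (1.77%), 1 without F2 (1.93%), 1 without F3 (2.74%) and 3 without F4 (3.73%). It was 3 without H1 (4.93%), 8 without H2 (12.5%), 0 without H3 (1.52%) and 1 without H4 (1.75%). The share of all features thus moved with the same birds.

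The middle of the gene set moved little between diets. The median log2 difference over the 53 genes was -0.02 in E minus A, with 25 genes higher in diet E, against 0.01 over all named genes. It was 0.04 in F minus A with 32 genes higher in diet F (0.01 over all named genes), and -0.02 in E minus F with 23 higher in diet E (-0.001 over all named genes). Diet H sat slightly lower, at -0.10 against A (23 genes higher, all named genes 0.01), -0.10 against E (20 higher, all named genes -0.02) and -0.16 against F (16 higher, all named genes -0.02). Without H3 and H4 the medians were -0.03 against A, -0.05 against E and -0.07 against F.

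The numbers in the sample titles split the birds into 2 blocks with 2 birds of every diet in each, and the labels do not call these a batch. The upper block, with titles above 25, holds birds A3, A4, E3, E4, F3 and F4 besides H3 and H4. H3 and H4 are the diet H birds of the upper block. Every fit without them thus sets diet H birds of the lower block against birds of both blocks in the other diets. Within titles numbered up to 25 and above 25, the median over the 53 genes was -0.18 and 0.13 in E minus A, 0.04 and 0.10 in F minus A, and -0.03 and -0.14 in H minus A. It was -0.24 and 0.10 in E minus F, 0.15 and -0.29 in H minus E, and -0.09 and -0.23 in H minus F. Of the 6 medians, 3 took opposite signs in the 2 blocks. The number of arrays limits the precision of all these values.

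**Figure D1:**
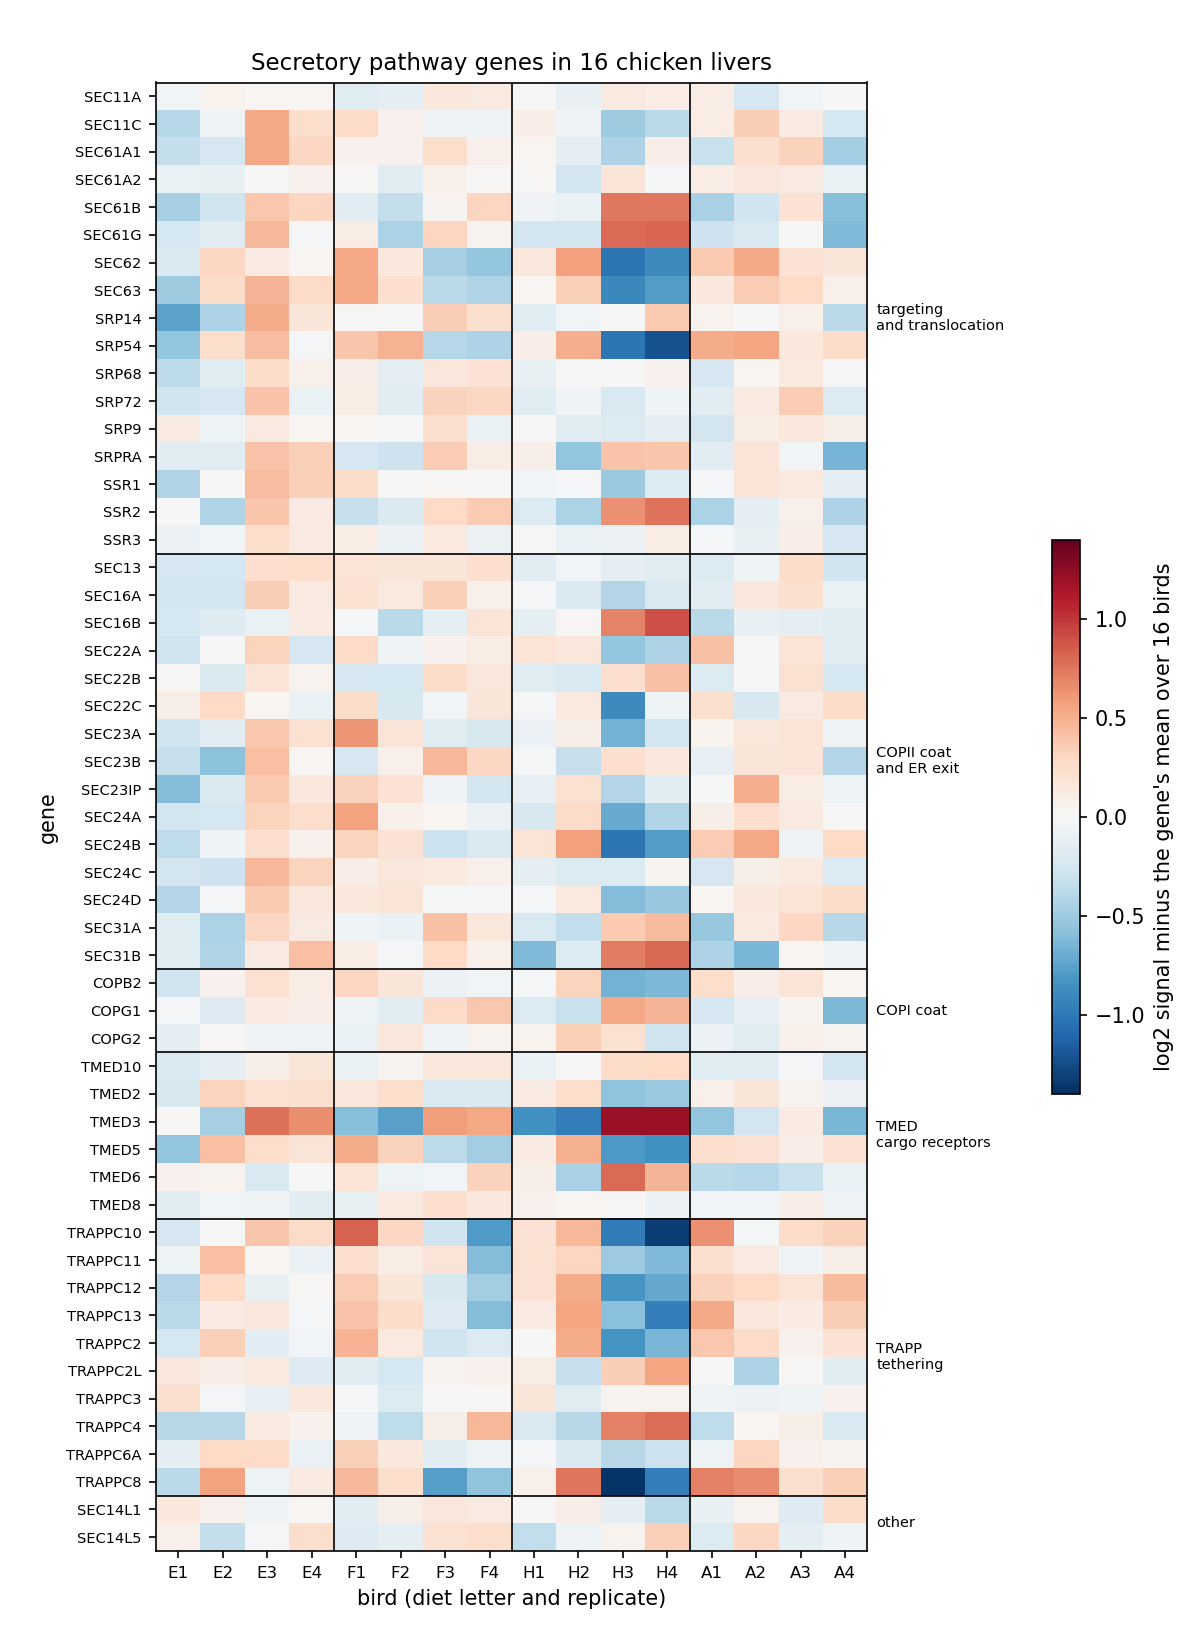
Log2 signal of each of the 53 genes (rows, grouped by role) in each of the 16 birds (columns, by diet), as the difference from the gene's own mean over the birds. Birds H3 and H4 have the deepest colours, with TMED3 and SEC61B above and TRAPPC8, TRAPPC10 and SRP54 below their means. Birds E3 and A3 are each above the mean in 42 of 53 genes, and E4 in 40. Of all named genes, 50.5% are above their mean in E3, 53.4% in A3 and 53.1% in E4.

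Birds on the same diet differed most in diet H. The range of a gene over all 16 birds had a median of 1.03 over the 53 genes, from 0.39 to 2.18. The median SD over 4 birds was 0.28 in diet E, 0.22 in diet F, 0.39 in diet H and 0.19 in diet A. Diet H had the largest SD of the 4 diets in 35 genes, diet E in 14, diet F in 3 and diet A in 1. This count was not made over all named genes, so it is not read as a trait of the secretory genes. Of all named genes, 14.4% had their highest level in H3 and 17.1% in H4. The lowest level fell in H3 for 15.8% and in H4 for 18.6%. Over the 53 genes the median standard error of a diet difference was 0.209, which gives a 95% half-width of 0.442 on the log2 scale.

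Among the targeting genes, SRP54, the GTPase of the signal recognition particle that binds the signal peptide, varied most over the birds. Its log2 signal was 7.96, 8.76, 8.93 and 8.48 in diet E, 8.90, 8.99, 8.10 and 8.07 in diet F, 8.60, 9.01, 7.49 and 7.29 in diet H, and 9.02, 9.06, 8.65 and 8.78 in diet A. Birds H3 and H4 were the lowest of all and H2 was among the highest, so diet H held nearly the whole range, and only A1 and A2 were above H2. The H minus A difference was -0.78 ± 0.35 (SE, adjusted p = 0.521 in limma), and -0.07 without H3 and H4. The other particle subunits were steadier. SRP72, which binds the particle's RNA with SRP68, averaged 8.88 ± 0.31 in diet E, 9.08 ± 0.22 in diet F, 8.81 ± 0.08 in diet H and 8.97 ± 0.25 in diet A (SD, n = 4 each). SRP14, a subunit of the domain that slows translation, was 6.90, 7.21, 8.16 and 7.82 in diet E and 7.66, 7.65, 7.99 and 7.87 in diet F. Diet E thus held both the lowest and the highest SRP14 level of the 16 birds, with E minus F at -0.27 ± 0.23 (adjusted p = 0.9998 in limma). SRPRA, the receptor subunit that docks the particle, ran from 8.85 in bird A4 to 9.90 in E3 and H3, and its E minus A difference of 0.27 ± 0.24 was -0.17 within titles numbered up to 25.

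The small subunits of the SEC61 channel stood higher on average in diet H than in diet A. SEC61B was 10.28, 10.46, 11.12 and 11.04 in diet E, 10.60, 10.41, 10.78 and 11.05 in diet F, 10.70, 10.65, 11.48 and 11.48 in diet H, and 10.30, 10.47, 10.95 and 10.15 in diet A. All 4 diet H birds were above the diet A mean, yet A3 lay above H1 and H2, so the diets overlapped. The H minus A difference was 0.61 ± 0.26 (adjusted p = 0.521 in limma), with a 95% interval of 0.07 to 1.15 before adjustment, and 0.21 ± 0.27 without H3 and H4. SEC61G, the other small subunit, had 7.14, 7.15, 8.20 and 8.23 in diet H and 7.12, 7.20, 7.40 and 6.79 in diet A, a difference of 0.55 ± 0.27 that was 0.02 without H3 and H4. H3 and H4 were again the highest of the 16 birds, with H1 and H2 inside the diet A range. The channel's large subunit SEC61A1 averaged 10.76 ± 0.42 in diet E, 10.80 ± 0.09 in diet F, 10.58 ± 0.24 in diet H and 10.64 ± 0.39 in diet A (SD, n = 4 each), with its highest level in E3 (11.24) and its lowest in A4 (10.22).

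SEC62 and SEC63, membrane partners of the channel that help short or slowly engaging substrates, went the other way from SEC61B in birds H3 and H4. SEC62 was 8.60, 9.09, 8.90 and 8.83 in diet E, 9.34, 8.94, 8.33 and 8.26 in diet F, 8.94, 9.37, 7.77 and 7.90 in diet H, and 9.17, 9.32, 9.0 and 8.96 in diet A. Birds H3 and H4 held the lowest levels and F3 and F4 the next, while the diet A birds lay within 0.36 of each other. SEC63 was 9.59, 9.90, 8.67 and 8.78 in diet H and 9.07, 9.82, 10.04 and 9.84 in diet E, so that H minus E was -0.46 ± 0.29 (adjusted p = 0.942 in limma) and 0.05 without H3 and H4. In the TRAP complex, which sits beside the channel, SSR1, SSR2 and SSR3 did not move alike. SSR2 reached its highest levels in H3 and H4 (11.03 and 11.14), SSR1 its lowest in H3 (9.63), and SSR3 stayed between 10.66 and 11.14 in all birds. The signal peptidase subunits also differed in spread: SEC11A ranged over 0.39 and SEC11C over 1.03.

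In the COPII coat, SEC16A and SEC16B, the scaffold of ER exit sites and its shorter paralog, were the genes with the smallest p in the diet H comparisons. SEC16A was 8.87, 8.85, 9.47 and 9.26 in diet E, 9.35, 9.27, 9.46 and 9.20 in diet F, 9.11, 8.92, 8.72 and 8.91 in diet H, and 8.98, 9.28, 9.36 and 9.03 in diet A. Every diet H bird was below every diet F bird, and diets E and A overlapped both. The H minus F difference was -0.40 ± 0.16 (adjusted p = 0.971 in limma) and -0.30 without H3 and H4. SEC16B was 6.62, 6.69, 6.77 and 6.98 in diet E, 6.84, 6.49, 6.74 and 7.05 in diet F, 6.73, 6.88, 7.56 and 7.77 in diet H, and 6.49, 6.76, 6.74 and 6.72 in diet A. Only H3 and H4 exceeded 7.05. Its H minus A difference was 0.56 ± 0.21 (adjusted p = 0.521 in limma), H minus E 0.47 ± 0.21 (adjusted p = 0.942) and H minus F 0.45 ± 0.21 (adjusted p = 0.971). Without H3 and H4 these values were 0.13, 0.04 and 0.03.

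SEC13, which forms the outer cage with SEC31, was 9.88, 9.99, 9.90 and 9.87 in diet H and 10.22, 10.20, 10.20 and 10.26 in diet F, an H minus F difference of -0.31 ± 0.15 (adjusted p = 0.971 in limma). Both diets were tight and did not overlap, and the difference was -0.28 without H3 and H4. SEC24C, SEC13, SEC16A and the translocation gene SSR1 were the 4 of 53 genes whose diet H birds all lay below the diet F birds (background 1.14% of features in either direction). No gene separated H from A (background 2.14%), H from E (1.03%), E from A (2.7%) or E from F (1.15%).

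The 4 SEC24 proteins choose cargo for the inner coat. SEC24A, SEC24B and SEC24D each had their 2 lowest levels in H3 and H4, and SEC24C had its 2 lowest in E2 and E1. SEC24D was 10.11, 10.26, 9.52 and 9.59 in diet H and 10.15, 10.27, 10.31 and 10.38 in diet A, a difference of -0.41 ± 0.19 (adjusted p = 0.521 in limma) that was -0.09 without H3 and H4. SEC24B, the gene of this role with the largest SD, ran from 5.18 in H3 to 6.77 in H2. SEC24A differed by -0.42 ± 0.21 in H minus F (adjusted p = 0.971 in limma) and by -0.12 without H3 and H4. SEC24C averaged 9.84 ± 0.39 in diet E, 9.90 ± 0.04 in diet F, 9.67 ± 0.11 in diet H and 9.74 ± 0.19 in diet A (SD, n = 4 each). Over 16 birds SEC24D correlated with SEC24A (r = 0.84) and SEC24B (r = 0.85), and SEC24B with SEC24C at r = 0.12. Without H3 and H4 these values were 0.65, 0.60 and -0.02. These correlations share the 16 arrays, so they carry array effects as well.

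Other COPII paralogs gave mixed pairs. SEC31A and SEC31B, outer-cage subunits, correlated at r = 0.69 (0.55 in 14 birds), while SEC23A and SEC23B, which activate the GTPase SAR1, did not (r = -0.06, and 0.13 in 14 birds). SEC23B was 8.21, 7.96, 8.95 and 8.55 in diet E and 8.29, 8.60, 8.99 and 8.82 in diet F, with E minus F at -0.26 ± 0.22 (adjusted p = 0.9998 in limma). SEC31B was 9.14, 9.01, 9.31 and 9.11 in diet F and 8.60, 8.40, 9.06 and 8.99 in diet A, a difference of 0.38 ± 0.28 (adjusted p = 0.993 in limma). One diet A bird, A3, lay above F2, so these diets overlapped. SEC22B, a SNARE that acts in vesicle fusion, and its paralog SEC22A correlated at r = -0.39, and at 0.00 without H3 and H4.

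**Figure D2:**
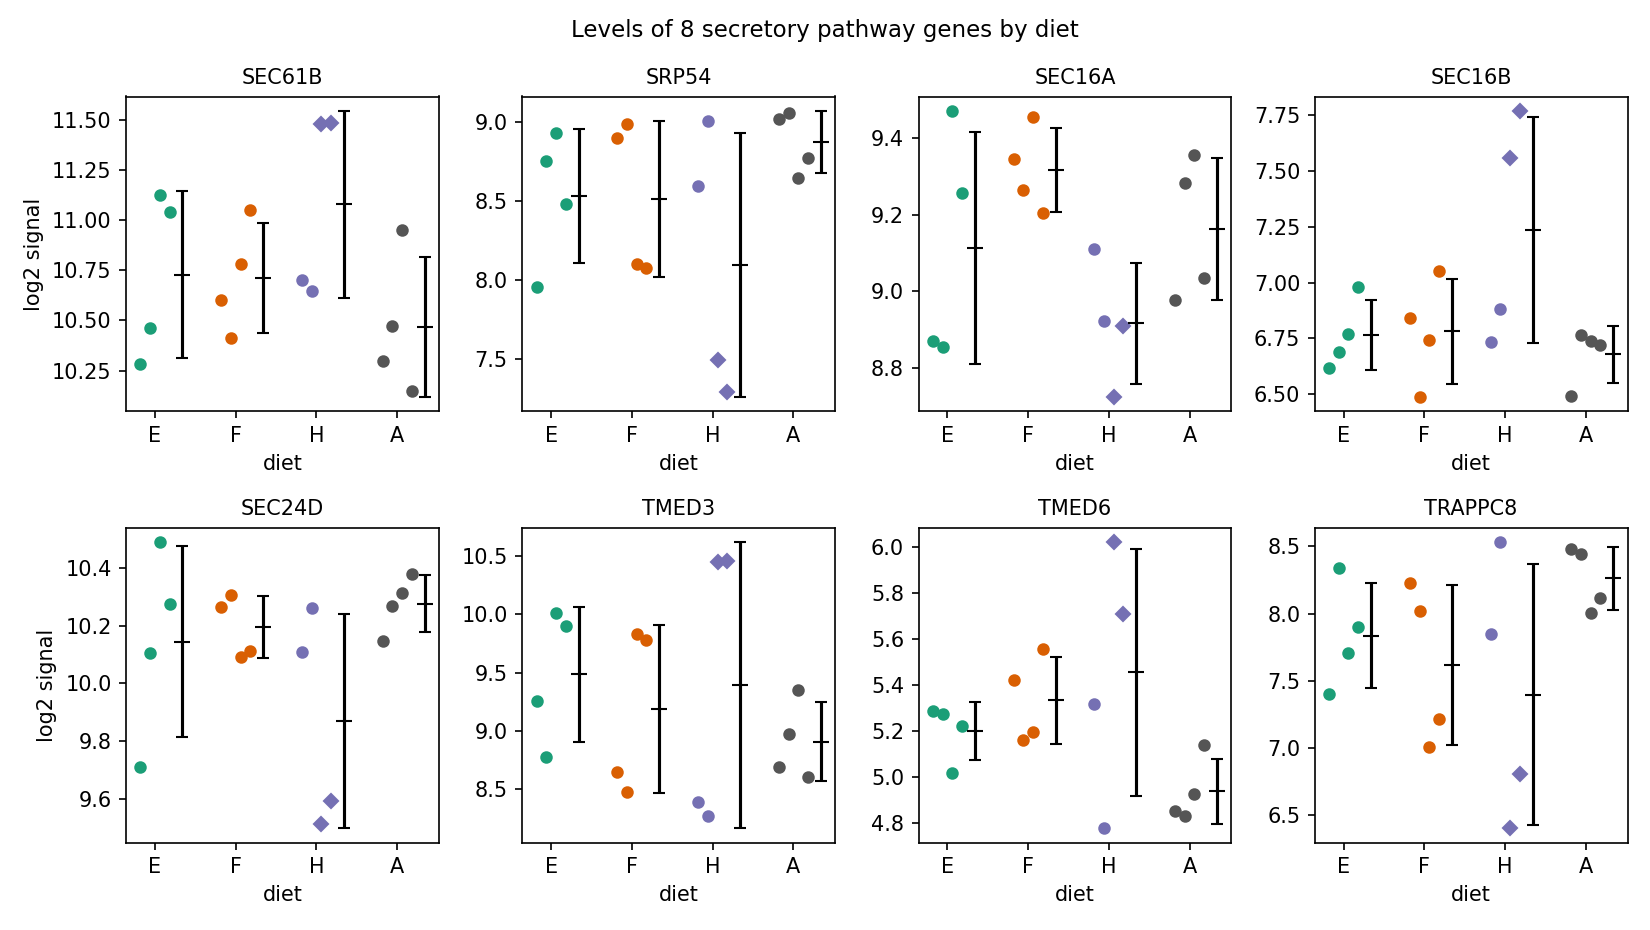
Log2 signal (vertical axis, a separate scale for each gene) of 8 genes in the 4 birds of diets E, F, H and A. Points are birds, diamonds are H3 and H4, and bars give the mean and SD over 4 birds. The diamonds lie above all other birds for SEC61B, SEC16B, TMED3 and TMED6 and below them for SRP54, SEC24D and TRAPPC8.

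The naming rule took in 3 measured COPI subunits. ARCN1, the delta subunit, lies outside the rule and averaged 8.92 ± 0.41 in diet E, 9.06 ± 0.05 in diet F, 8.81 ± 0.08 in diet H and 8.90 ± 0.19 in diet A (SD, n = 4 each). COPG1, a gamma subunit, was 9.82, 9.65, 9.94 and 9.92 in diet E, 9.76, 9.69, 10.10 and 10.21 in diet F, 9.64, 9.52, 10.38 and 10.31 in diet H, and 9.60, 9.72, 9.87 and 9.20 in diet A. All diet E and all diet F birds were above the diet A mean, and birds A2 and A3 kept the ranges overlapping. F minus A was 0.34 ± 0.21 (adjusted p = 0.993 in limma) and E minus A 0.24 ± 0.21 (adjusted p = 0.9997). These 2 comparisons share the diet A birds, of which A4 was the lowest of all 16, and without it the differences were 0.21 and 0.10. COPB2, a beta-prime subunit, was 9.27 and 9.30 in H3 and H4 and between 9.66 and 10.25 elsewhere. The second gamma subunit COPG2 stayed between 7.57 and 8.18 and correlated with COPG1 at r = -0.19.

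TMED3, a p24 family receptor that cycles between ER and Golgi, had the widest range of the 53 genes. It was 9.25, 8.78, 10.01 and 9.90 in diet E, 8.65, 8.48, 9.83 and 9.78 in diet F, 8.39, 8.27, 10.45 and 10.46 in diet H, and 8.69, 8.98, 9.35 and 8.60 in diet A. In diets E, F and H, birds 1 and 2 were low and birds 3 and 4 high, which is also the split by title number, while diet A showed it only in A3. E minus A was 0.58 ± 0.49 (adjusted p = 0.9997 in limma). Within titles numbered up to 25 it was 0.18, and within those above 25 it was 0.98. Without H3 and H4, H minus E was -1.15 ± 0.41 (adjusted p = 0.878 in limma), the only secretory gene at an unadjusted p under 0.05 in that fit. That fit sets H1 and H2, both with titles up to 25, against diet E birds of both blocks, so it mixes title number with diet. With all birds H minus E was -0.09 ± 0.49.

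TMED6, another p24 family member, was the one gene with no overlap in F minus A. It was 5.29, 5.28, 5.02 and 5.22 in diet E, 5.42, 5.16, 5.20 and 5.56 in diet F, 5.32, 4.78, 6.02 and 5.71 in diet H, and 4.85, 4.83, 4.92 and 5.14 in diet A. Every diet F bird was above every diet A bird (1 of 53 genes, background 1.84% of features), by 0.40 ± 0.21 on average (adjusted p = 0.993 in limma). H minus A was 0.52 ± 0.21 (adjusted p = 0.521 in limma) and 0.11 without H3 and H4, and bird H2 was the lowest of the 16. TMED10, a p24 receptor, averaged 10.17 ± 0.18 in diet E, 10.26 ± 0.12 in diet F, 10.31 ± 0.19 in diet H and 10.04 ± 0.10 in diet A (SD, n = 4 each). TMED2, its partner in p24 complexes, was 9.91 and 9.95 in H3 and H4 and at least 10.25 in the other birds, and TMED5 was 8.62 and 8.57 in H3 and H4 and at least 8.87 elsewhere. TMED8 had the smallest p in E minus F, at 7.11, 7.22, 7.21 and 7.11 in diet E and 7.16, 7.40, 7.50 and 7.41 in diet F, a difference of -0.20 ± 0.12 (adjusted p = 0.9998 in limma).

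TRAPP subunits differed by their level in H3 and H4. TRAPPC8, a subunit of the TRAPPIII complex, was 7.40, 8.34, 7.71 and 7.90 in diet E, 8.23, 8.02, 7.0 and 7.22 in diet F, 7.85, 8.53, 6.40 and 6.81 in diet H, and 8.48, 8.44, 8.01 and 8.12 in diet A. The lowest birds were H3, H4, F3 and F4, and the highest was H2. H minus A was -0.86 ± 0.39 (adjusted p = 0.521 in limma) and -0.07 without H3 and H4, and F minus A was -0.64 ± 0.39 (adjusted p = 0.993). TRAPPC10, a subunit of TRAPPII, spanned 2.15, from 7.35 in H4 to 9.50 in F1. H3 and H4 were also the 2 lowest birds for TRAPPC12 and TRAPPC2, while TRAPPC13 was lowest in H4 (6.92) and next in F4 (7.27). TRAPPC12 averaged 6.55 ± 0.29 in diet E, 6.56 ± 0.38 in diet F, 6.39 ± 0.67 in diet H and 6.91 ± 0.11 in diet A (SD, n = 4 each), with E minus A at -0.36 ± 0.27 (adjusted p = 0.9997 in limma).

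Among the small core subunits TRAPPC4 and TRAPPC2L had their 2 highest levels in H3 and H4, while TRAPPC2 and TRAPPC6A had their 2 lowest there. TRAPPC4 was 6.58, 6.40, 7.49 and 7.58 in diet H and 6.44, 6.82, 6.87 and 6.58 in diet A, and TRAPPC2L reached 8.76 in H4. TRAPPC3, a core subunit on which the complex is built, stayed within 0.41 over all 16 birds. TRAPPC6A was 7.34, 7.15, 6.96 and 7.06 in diet H and 7.29, 7.66, 7.42 and 7.39 in diet A, a difference of -0.31 ± 0.16 (adjusted p = 0.521 in limma) that was -0.20 without H3 and H4. Over the 10 TRAPP genes the median H minus A difference was -0.39 with 3 genes higher, and 0.03 with 7 genes higher without H3 and H4. For the 15 COPII and exit genes it was -0.25 with 5 higher, and -0.09 with 3 higher without these birds. For the 17 targeting and translocation genes it was -0.05 with 8 higher, and -0.05 with 5 higher without them. SEC14L1 averaged 9.34 ± 0.08 in diet E, 9.34 ± 0.14 in diet F, 9.18 ± 0.20 in diet H and 9.29 ± 0.19 in diet A (SD, n = 4 each), and SEC14L5 stayed between 5.57 and 6.24.

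**Figure D3:**
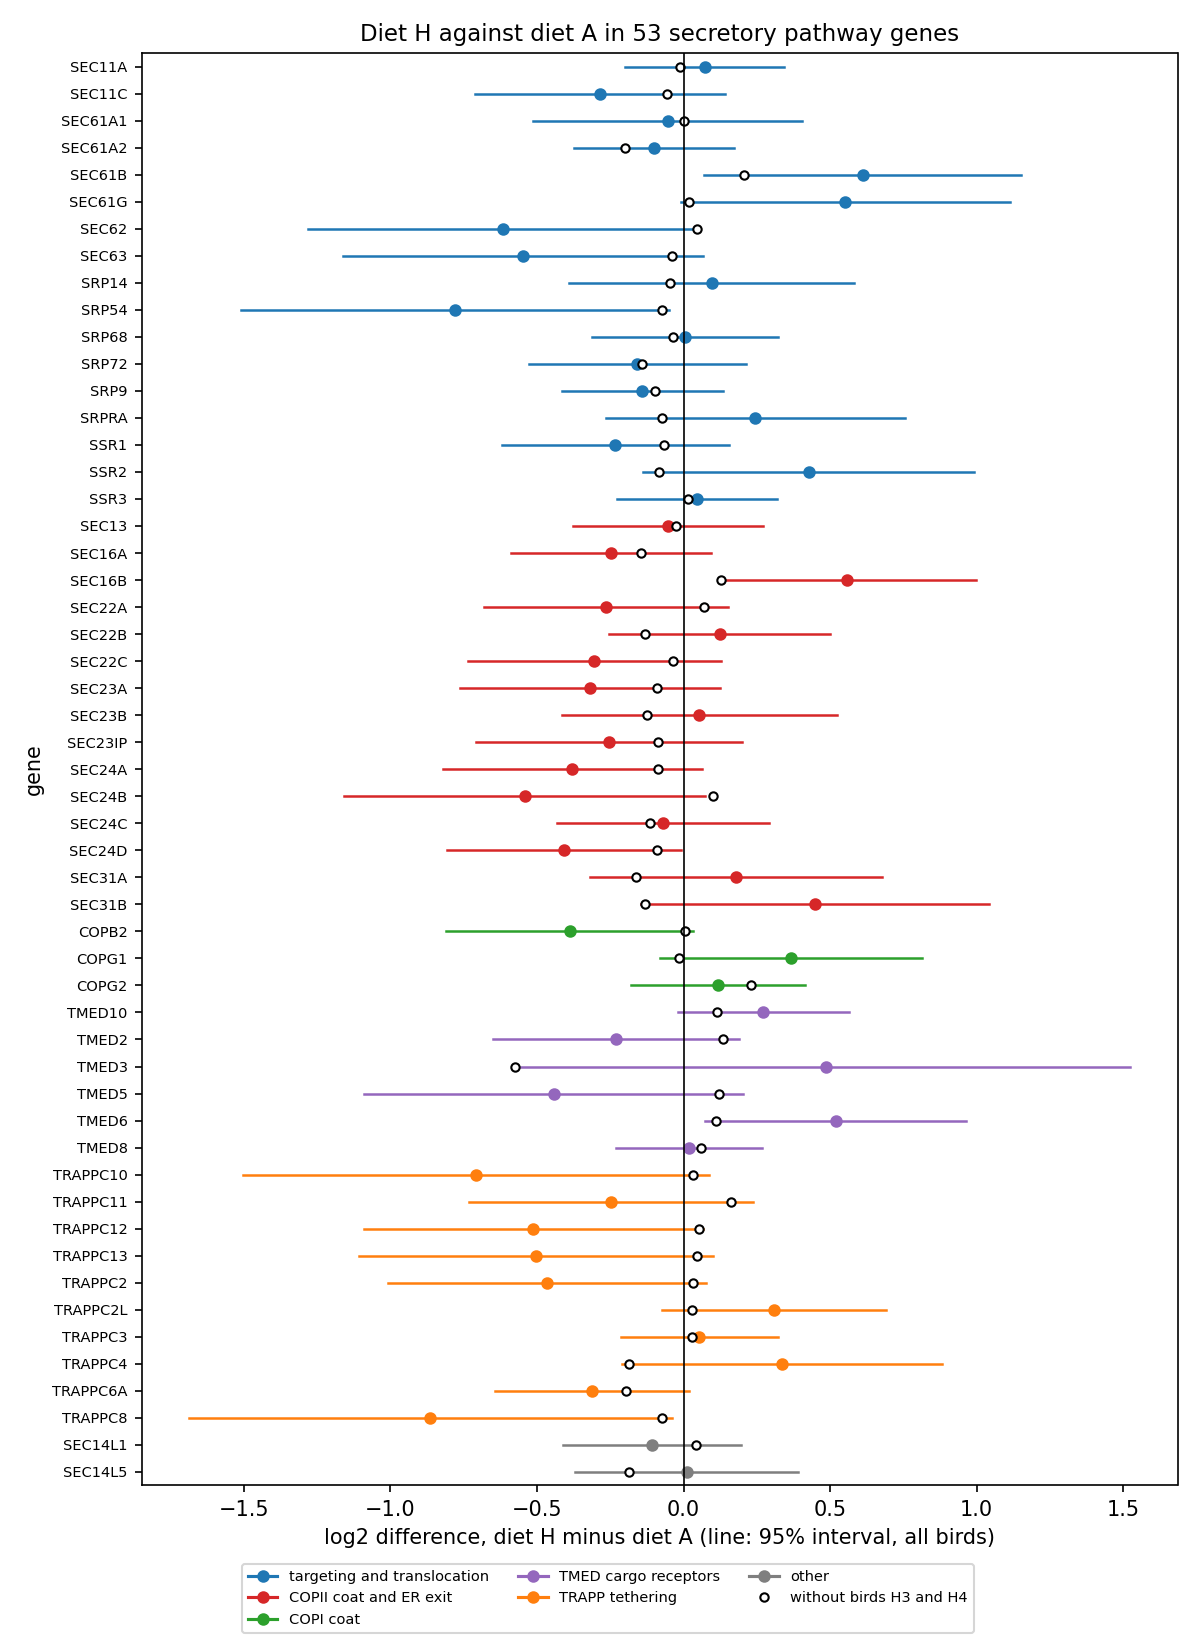
Log2 difference of diet H minus diet A (horizontal axis) for the 53 genes. Filled points and lines give the difference and its unadjusted 95% interval with all birds, and open points give the difference without H3 and H4. The filled points reach from -0.86 (TRAPPC8) to 0.61 (SEC61B), and the open points lie closer to 0 in 44 of 53 genes.

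Differences between diets H and A were mostly nearer 0 without H3 and H4. The median size of the H minus A difference over the 53 genes, sign aside, was 0.29 with all birds and 0.08 without them, and 26 of 53 differences had the other sign. The difference was larger in size with all birds in 44 genes. These values were not computed over all named genes, so they are not read as a trait of the secretory genes. Over all features, the share at an unadjusted p under 0.05 in H minus A also went from 8.21% to 2.25% without these birds.

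Extreme levels were unevenly spread over the birds. E3 had the highest level of the 16 birds in 11 of 53 genes, or 20.8%, against 3.34% of all named genes, and a median deviation of 0.24 over the 53 genes. H4 had the highest level in 12 (22.6%, all named genes 17.1%) and H3 the lowest in 17 (32.1%, all named genes 15.8%). E1 had the lowest median, at -0.25, with 10 of 53 genes above their mean, against 49.3% of all named genes above theirs in that bird. A4 had the lowest level in 9 genes (16.98%, all named genes 5.01%), SEC61A1, SEC61B, SEC61G, SRPRA and COPG1 among them. These are descriptions of single birds, and E1 and E3 were fed the same diet.

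The genes were ranked by how closely each followed the rest over the birds. The correlation of a gene with the median of the other 52 was highest for SSR1 (r = 0.93), SEC16A (0.89), SEC11C (0.89), SEC61A1 (0.83), SEC24C (0.83) and SEC23IP (0.80), which links the coat to exit sites. For these 6 genes it was 0.93, 0.85, 0.87, 0.87, 0.87 and 0.76 in 14 birds without H3 and H4. These 6 are the highest of 53 values, and other genes of the same roles did not follow, such as SEC16B (-0.31), SEC11A (-0.29), SEC31B (-0.12), SSR2 (-0.07) and SEC61G (-0.05). In 14 birds these 5 were at 0.33, -0.13, 0.36, 0.44 and 0.61. Over 16 birds the correlation was lowest for TRAPPC3 (-0.49), TMED6 (-0.47) and TRAPPC2L (-0.46). In 14 birds these genes were at -0.48, -0.15 and -0.22, and SEC14L1 (-0.50) and SEC22C (-0.36) were then among the lowest. The median correlation between 2 genes was 0.15 over all 1378 pairs of the 53, against 0.01 over all pairs of named genes. It was 0.39 within the COPII role (68 of 105 pairs positive), 0.33 within targeting and translocation (99 of 136) and 0.42 within TRAPP (24 of 45). Within TMED it was -0.07 (5 of 15 pairs positive) and within COPI -0.19 (1 of 3 pairs positive). Other functional lists had higher values, 0.77 for 48 cytosolic ribosomal protein genes (0.52 in 14 birds) and 0.47 for 18 ER chaperone and stress genes (0.35). Without H3 and H4 the TRAPP value was 0.10, the COPII value 0.34, the translocation value 0.41, the TMED value 0.02 and the COPI value -0.26.

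ER chaperones and regulators of the unfolded protein response, the programme that adjusts ER capacity to load, were set beside these genes. Of 21 such genes 18 were measured, among them HSPA5, the main ER chaperone, HSP90B1, PDIA4 and XBP1. The median deviation of these 18 per bird correlated with that of the 53 secretory genes at r = 0.81 (Spearman's rho 0.79) over 16 birds and 0.80 over 14. It was 0.87 within the 8 birds of titles up to 25 and 0.91 within the 8 above. With the COPII genes r was 0.85 (0.80 in 14 birds), with targeting and translocation 0.47 (0.64), with TRAPP 0.73 (0.37) with TMED 0.02 (0.45), with COPI 0.24 (0.38) and with other trafficking genes 0.56 (0.64). The highest chaperone medians were in A2 (0.37), E4 (0.32) and E3 (0.30), and the lowest in H3 (-0.59), H4 (-0.47) and E1 (-0.26). The points share arrays, 7 gene sets were compared in this way, and no list unrelated to secretion was among them. Single secretory genes ran from r = 0.91 for SEC24D to -0.79 for TRAPPC2L (0.77 and -0.59 in 14 birds). TMED6 was at -0.77 (-0.45 in 14 birds) and SEC16B at -0.62 (0.22 in 14 birds). Correlations of single genes with the median of the 48 cytosolic ribosomal protein genes were as large. They ran from 0.89 for SSR2 to -0.95 for TRAPPC12 (0.80 and -0.93 in 14 birds). SEC24D was at -0.80 with that list (-0.41 in 14 birds), so its tie was not to the chaperones alone. H3 and H4 also held the lowest medians of the 4 endothelial markers, at -0.77 and -0.70.

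**Figure D4:**
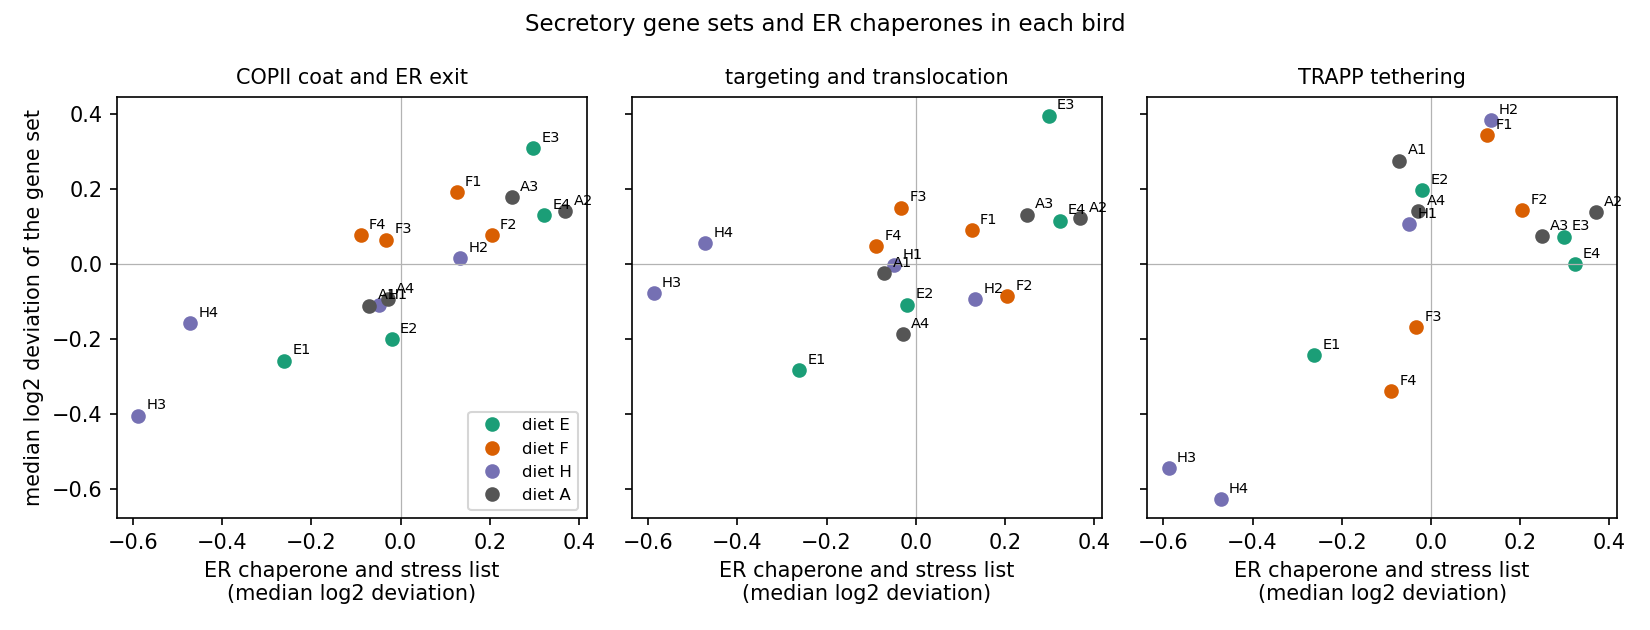
Median log2 deviation per bird of the 18 ER chaperone and stress genes (horizontal axis) against that of the COPII, translocation and TRAPP genes (vertical axes), with birds coloured by diet. COPII runs with the chaperones, with H3 lowest for both, E3 highest for COPII and A2 highest for the chaperones. On the chaperone axis birds of every diet lie on both sides of 0, whereas for COPII all diet F birds lie above 0.

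PDIA4, a disulfide isomerase of the ER, was 10.70, 11.16, 9.70 and 9.83 in diet H and 11.09, 11.12, 11.13 and 11.02 in diet A, a difference of -0.74 ± 0.29 (adjusted p = 0.521 in limma). H3 and H4 were its lowest birds, and H2 lay above every diet A bird. Of the 18 genes, 4 were lower at an unadjusted p under 0.05 in H minus A (8.21% of all features, in either direction) and 0 without H3 and H4 (2.25%), and 0 passed adjustment. ERN1, the IRE1 sensor of ER stress, averaged 8.29 ± 0.16 in diet H and 8.77 ± 0.32 in diet A (SD, n = 4 each) with no overlap (2.14% of features), a difference of -0.48 ± 0.17 (adjusted p = 0.521 in limma). It was lowest in H3 (8.13) and H4 (8.18), with H1 at 8.45 and H2 at 8.41. The 34 of 53 other trafficking genes that were measured also had 0 past adjustment in every comparison, 5 at an unadjusted p under 0.05 in H minus A (8.21% of features) and 0 without H3 and H4 (2.25%). ARFGAP2, a COPI GTPase activator, was 8.42, 8.20, 8.72 and 8.49 in diet H and 8.13, 8.04, 8.06 and 7.95 in diet A, with no overlap (2.14% of features) and a difference of 0.41 ± 0.13 (adjusted p = 0.521 in limma). H3 and H4 were its highest birds. The differences of PDIA4, ERN1 and ARFGAP2 are given with all birds only. KDELR3, a receptor that returns ER residents, was 5.82, 5.42, 5.41 and 5.56 in diet E and 5.01, 4.94, 5.12 and 5.12 in diet A, also without overlap (2.7% of features), by 0.51 ± 0.26 (adjusted p = 0.9997 in limma).

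The sign of a gene's deviation in H3 and H4 went with the size of the gene. Across the 51 secretory genes with a genomic span from start to end in the RefSeq gene table of assembly GRCg7b, Spearman's rho between span and deviation was -0.46 in both birds, against -0.35 and -0.36 across 11030 named genes. TMED3, with a span of 1988 bases, and TRAPPC4, with 1795, were high there, and TRAPPC8 (50105 bases), SEC63 (55466 bases) and TRAPPC10 (42406 bases) were low. SEC31B (31798 bases) was high and SRP54 (12854 bases) low, so span does not order all of them. The same rho was 0.49 in F2, 0.52 in A4 and -0.34 in F4. Genes are not independent replicates, and these values describe single arrays. With a trend on span taken out of each array, the H minus A differences were 0.44 for SEC61B, -0.76 for SRP54, -0.72 for TRAPPC8 and -0.26 for SEC24D, and 0 genes passed adjustment.

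**Figure D5:**
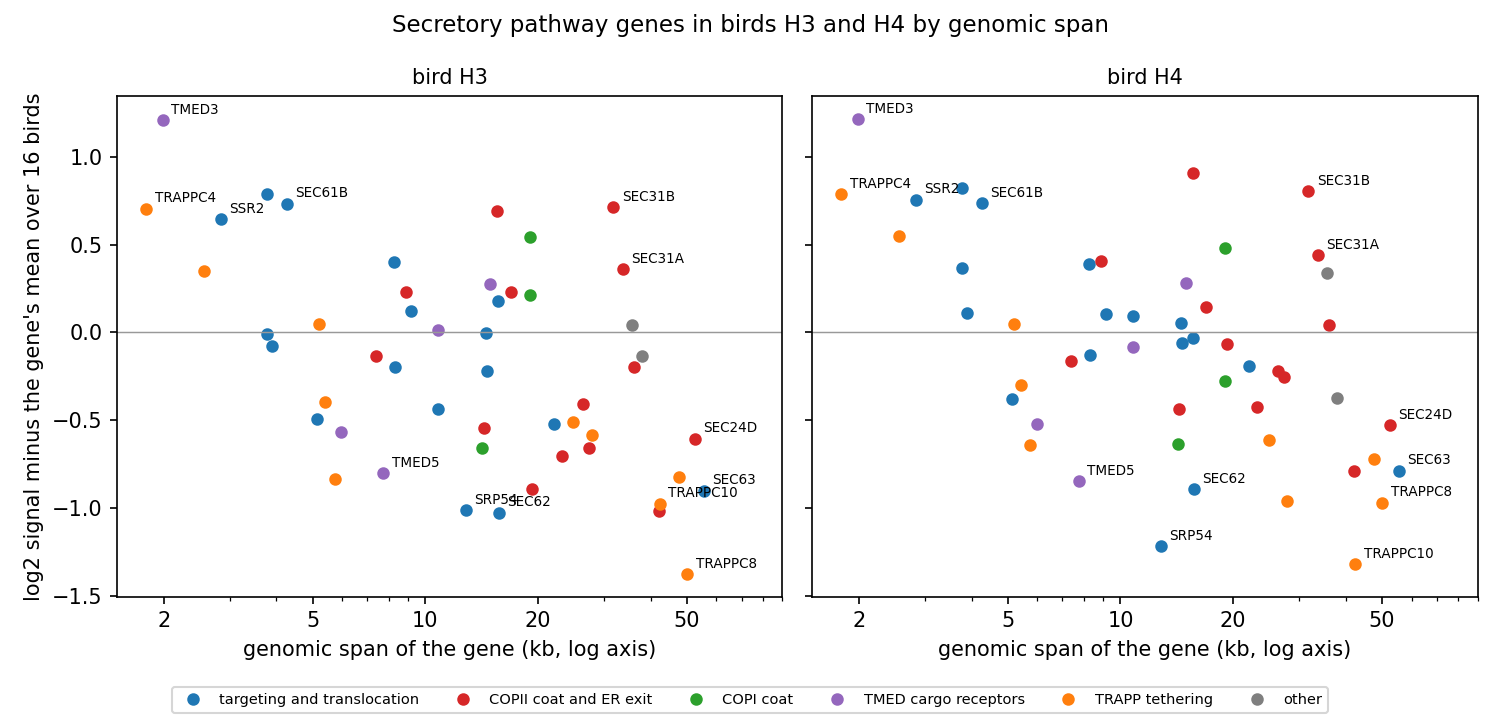
Log2 signal minus the gene's mean over 16 birds (vertical axis) against the genomic span of the gene in kilobases (logarithmic horizontal axis), for birds H3 and H4 and the 51 genes with a span. The shortest genes, TMED3 and TRAPPC4, lie above 0 and the longest, among them TRAPPC8 and SEC63, below it, while SEC31B lies above 0 despite its length.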

How the data were processed

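Liver RNA of 16 birds, 4 per diet, was measured on 1-colour Affymetrix arrays. The deposited values are log2 signals of 20804 features, with GCOS 1.1.1 listed as software per the submitters' processing notes. How the authors corrected background, summarized probes and normalized arrays is not given in the sources used here. Values were used as deposited, with array medians of 6.11 to 6.21. Of the features 12300 carry 1 gene symbol, 256 several and 8248 none, and the named ones stand for 11528 genes.

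All 16 arrays were fitted together with limma 3.58.1 in R 4.3.3 (lmFit and eBayes, residual df 12, prior df 4.12), and p-values were adjusted by Benjamini-Hochberg over all features. The members and gene lists were chosen with earlier results of these data known. Genes were named from the 8 smallest p of each diet minus A (also for H without H3 and H4) and of the F test, the 5 smallest of other pairs, the level extremes and largest SD of each role, the 6 highest and 3 lowest correlations with the other members, paralog pairs, and the 3 smallest F-test p of other lists. Others, such as SEC62, TMED5, TRAPPC4 and A4's lowest genes, were named after their values were seen. Some genes picked by the stated ranks and pairs, SEC61A2, RAB18 and CREB3L2 among them, are not described. Bird numbers follow the order of deposit and pair nothing, so p-values measure the spread between these birds. A signal under the 20th percentile of all values was called dim. RefSeq's table for GRCg7b gave names and genomic spans only.

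The fit was tested on simulated data for E minus A over 20804 features, with 50 features changed at each size. It recovered 6% at a log2 change of 0.5, 52% at 1, 92% at 2 and 100% at 3, with 5 false calls. Alternatives were quantile normalization, a trended robust fit, leaving out dim features, a title-number block, the 2 diets alone, a span trend taken out and leaving out birds.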

Additional observations from a re-analysis of the deposited data

Results flagged for a closer look

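In 8 of 212 combinations of gene and diet, 1 bird lay far from the other 3, where chance gives about 1 in 20, or 10.6 here. On the log2 scale SEC16B was low in A1 (6.49), SRP9 was low in A1 (7.85), SRP14 was low in A4 (7.27) and TMED8 was high in A3 (7.35). In diet F, SEC61A1 was high in F3 (10.94), SSR1 was high in F1 (10.41), TRAPPC11 was low in F4 (6.499) and TRAPPC3 was low in F2 (7.54).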

How the results depend on the processing

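No secretory gene passed adjustment under any alternative run, and the lowest adjusted p in limma was 0.110, for H minus A. Single genes were followed only in the comparisons where their p was among the smallest in these same data. That choice favours kept directions, so the counts for them do not speak for the other genes. Over all 53 genes, 26 of the H minus A differences took the other sign without H3 and H4. Of the values for the single genes followed, 629 kept their direction and 10 reversed. Without H3 and H4, H minus E was 0.052 for SEC63 and 0.055 for TMED2. Within titles up to 25, E minus A was -0.17 for SRPRA, H minus A was -0.014 for SEC61G, and H minus E was 0.30 for SEC63, 0.14 for TMED2 and 0.19 for SSR1. Within titles above 25, E minus F was 0.035 for SEC16A, 0.039 for SEC13 and 0.056 for SRP14. The median over the genes moved to -0.066 in H minus F without H3 and H4, and ran from -0.215 to -0.082 there with 1 bird left out. Within titles up to 25 it was -0.18 in E minus A, -0.24 in E minus F, 0.15 in H minus E and -0.086 in H minus F, and within titles above 25 it was -0.29 in H minus E and -0.23 in H minus F. The cause was not tested. With the title number as a block, 16 of the 53 genes reached an unadjusted p under 0.05 in H minus A, among 3175 of 20804 features. Without the block it was 6 genes among 1708 features. With the block the share of the 53 genes was thus above that of all features, and the reason was not tested. Averaging the features of a gene changed nothing, since each gene has 1. No paired analysis was possible because bird numbers follow the order of deposit.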
